A study of Drosophila melanogaster with 10 samples.

Results

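The genes described here carry out autophagy and the fusion of autophagosomes with lysosomes. They were chosen by name, 30 genes of the 14292 to which the deposited transcript table could be summed, and all 30 were found. Both groups were adult male Drosophila melanogaster carrying the D44 mutation of Dredd on the X chromosome (Dredd D44/Y), the caspase with which the IMD immune pathway activates its transcription factor. The PGRP-LE group also carried mex-GAL4 and UAS-PGRP-LE and is written mex>PGRP-LE, and the control group carried mex-GAL4 alone (mex-GAL4/+) and is written mex>+. All flies lived on yeast alone at 25 °C with 12 h of light per day and were dissected at 7 days of adult life. Each group had 5 libraries, and RNA came from 20 midguts. The mex promoter drives GAL4 in enterocytes, which absorb nutrients, whereas the libraries hold the whole midgut. The controls had no UAS transgene, so effects of the receptor and of carrying the insertion cannot be told apart.

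Autophagy wraps cytoplasm in a double membrane, the autophagosome, and delivers it to the lysosome for breakdown. The Atg1 kinase complex starts the process, the lipid kinase complex around Pi3K59F marks the membrane, Atg9, Atg2 and Atg18 proteins feed it with lipid, and a conjugation system attaches Atg8a to it. SNARE proteins and Rab7 then join the closed autophagosome to the lysosome. The receptor PGRP-LE binds peptidoglycan of bacteria and can act inside cells, and in fly blood cells it is known to start autophagy against intracellular bacteria. Messenger RNA levels do not measure the flow through this pathway, since much of its control acts on proteins.

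PGRP-LE itself was measured at 4422, 4538, 5030.2, 4257 and 4420.5 TPM in the mex>PGRP-LE libraries, against 35.9, 37.04, 41.8, 39.2 and 37.1 TPM in the mex>+ libraries, so each library matched its label. Transcripts of the transgene and of the gene itself were not separated. Dredd was measured at 30.9 to 35.98 TPM with PGRP-LE and 21.9 to 26.5 TPM in controls, and these levels do not test the D44 mutation, which both groups carry. The values are TPM, relative transcript abundances scaled for transcript length and to 1 fixed total per library, which keep no record of sequencing depth, so no counting error can be given. The 8722 genes that reached 1 TPM in 5 or more libraries were compared with limma on log2(TPM + 1), two-sided. Coordinates are those of BDGP6.54. Adjusted p-values are Benjamini-Hochberg over all those genes, and "rose" and "fell" are used below 0.05 only. Because of the added 1, a log2 change understates the change of a gene of low level. Between 8565 and 8767 genes reached 1 TPM in a library, and the median log2 change of all tested genes was 0.09.

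Cell type markers moved as well. All 5 of 5 progenitor markers rose, with a summed level of 50.6 to 66.9 TPM with PGRP-LE and 15.3 to 17.9 TPM in controls. The 4 Malpighian tubule markers summed to 8.30 to 73.96 TPM with PGRP-LE and 39.9 to 193 TPM in controls, and 1 of 4 fell. The 8 enterocyte markers summed to 19699 to 21655 TPM with PGRP-LE and 22066 to 25633 TPM in controls, and 4 rose and 3 fell. Most of that sum was alphaTry alone, which fell, averaging 16099 TPM with PGRP-LE and 20493 TPM in controls. The 4 that rose were mex1, nub, betaTry and lambdaTry, and Myo31DF and Myo61F fell beside alphaTry, so the lower sum does not describe the list. After the median-of-ratios rescaling described below, 3 enterocyte markers rose and 4 fell, beside 31.6% and 31.1% of all genes. Of 6 enteroendocrine markers 2 rose and 1 fell, of 6 visceral muscle markers 3 fell, and of 4 tracheal markers 2 fell. Among 4 neuronal markers 3 were tested, of which 1 rose and 1 fell. The haemocyte markers Hml, NimC1, He and eater were all below the level for testing, with sums of 0.242 to 0.737 TPM with PGRP-LE and 0.0525 to 0.461 TPM in controls. The fat body markers Fbp1, Lsp2 and Yp1 were also below that level, and apolpp, the other one, did not pass the test. The part of these cell types in the results below was not tested, and in whole midguts fewer cells of a type and less RNA per cell cannot be told apart.

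The autophagy genes moved in both directions by small amounts. Of the 30, 29 reached the level for testing, 15 rose, 6 fell and 8 did not pass the threshold. That is 51.7% higher and 20.7% lower, beside 40.1% and 22.8% of all tested genes, so the list as a whole stood near the background. The groups did not overlap for 9 members that were higher and 5 that were lower, beside 31.3% and 17.0% of all tested genes. The median log2 change of the tested members was 0.15, and single changes ran from -0.46 for Pi3K59F to 0.71 for Atg5. After median-of-ratios rescaling, which sets the typical gene to no change, 10 members rose and 9 fell, beside 31.6% and 31.1% of all genes, with a member median of 0.052.

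**Figure D1:**
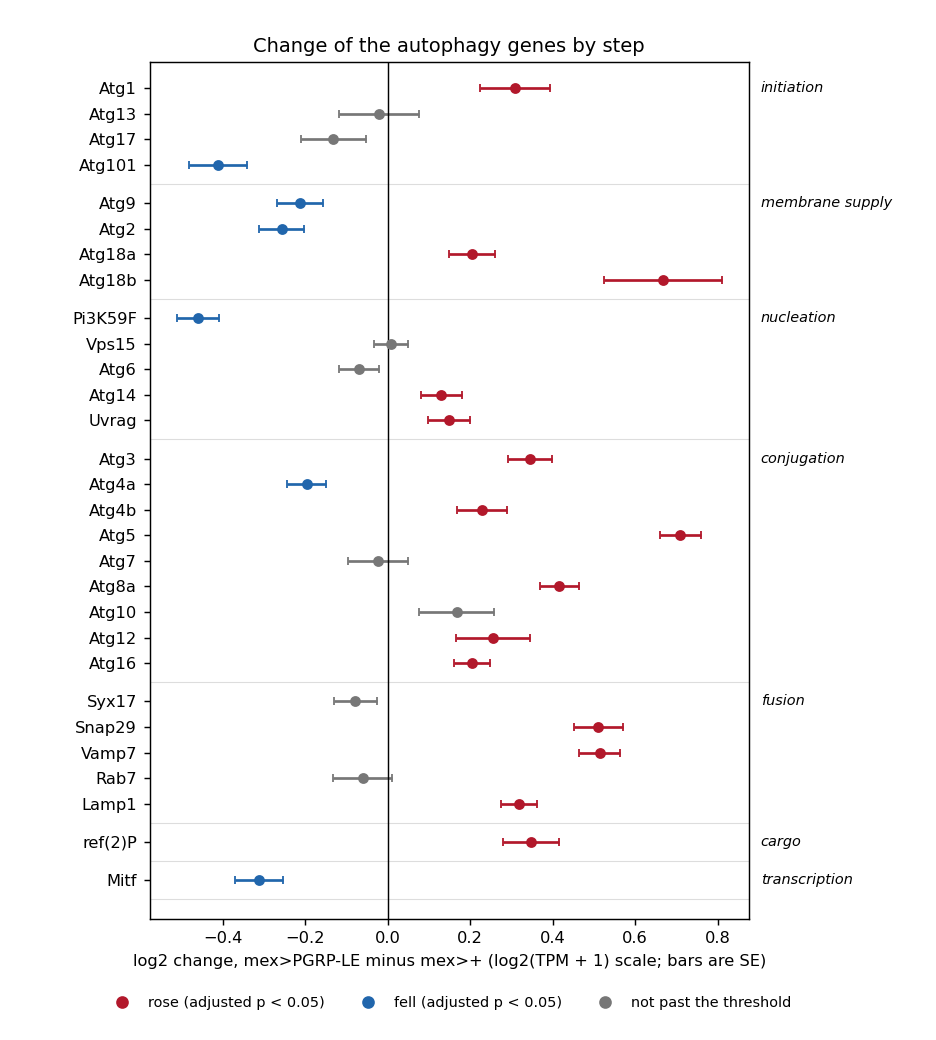
Log2 change of each of the 29 tested autophagy genes (mex>PGRP-LE minus mex>+, on the log2(TPM + 1) scale), grouped by step down the page, with bars for the SE from limma and 5 libraries per group. Red genes rose, blue genes fell and grey genes did not pass the threshold. Every step with more than 1 gene, other than fusion, holds both red and blue points.

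The members differed widely in level. Atg8a was the most abundant, at 741 ± 34.7 TPM with PGRP-LE and 555 ± 25.6 TPM in controls (SD, n = 5), followed by Lamp1, ref(2)P and Rab7. Together these 4 genes made up 75.3% ± 0.345 of the summed TPM of the 30 genes with PGRP-LE and 73.3% ± 0.502 in controls (SD, n = 5). Most of the core machinery stood between about the level of Atg7, at 4.73 ± 0.453 TPM with PGRP-LE and 4.83 ± 0.444 TPM in controls, and that of Atg18a, at 43.9 ± 2.65 TPM with PGRP-LE and 37.99 ± 2.23 TPM in controls. Atg8b, a paralog of Atg8a known mainly from the testis, lay between 0 and 0.537 TPM with PGRP-LE and between 0.0572 and 0.621 TPM in controls, too low to test. A split at a mean of 50 TPM, chosen after the values were seen, left 6 members above it, of which 5 rose and 0 fell under both scalings. Among all 1923 genes above that level, 43.7% rose and 30.5% fell. Of the 23 tested members below it, 10 rose and 6 fell, or 5 and 9 after rescaling, while 39.1% of all genes below that level rose and 20.7% fell. These shares of all genes above and below that level are for the TPM as deposited, and none is given after rescaling. Over all levels, 31.6% of genes rose and 31.1% fell after rescaling.

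The 4 genes of the initiation complex did not move together. Atg1, the kinase that starts autophagosome formation (FBgn0260945, chromosome 3L, 12784429 to 12805116, minus strand), stood at 19.6, 21.8, 22.6, 26.3 and 25.2 TPM in the mex>PGRP-LE libraries, against 17.3, 18.9, 16.2, 20.8 and 19.1 TPM in the mex>+ libraries. It rose, with a change of 0.31 ± 0.085 log2 units (SE; adjusted p by limma = 0.00722), although the lowest PGRP-LE library lay below the highest control library. Atg101, which stabilises the complex (FBgn0030960, chromosome X, 18791668 to 18793517, plus strand), stood at 24.9, 22.8, 22.1, 26.3 and 28.5 TPM in the mex>PGRP-LE libraries, against 33.4, 35.6, 35.1, 31.8 and 30.99 TPM in the mex>+ libraries. All PGRP-LE libraries lay below all control libraries, a change of -0.41 ± 0.070 log2 units (SE; adjusted p by limma = 2.98e-04). The scaffold genes Atg13 and Atg17 did not pass the threshold. Atg13 ranged over 9.85 to 14.2 TPM with PGRP-LE and 11.4 to 14.3 TPM in controls (log2 change -0.020, adjusted p = 0.867), and Atg17 over 10.53 to 13.8 TPM with PGRP-LE and 11.7 to 14.03 TPM in controls (log2 change -0.13, adjusted p = 0.163). The rescaling by median of ratios moved Atg17 past the threshold as lower (-0.23, adjusted p = 0.0282).

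Of the 4 genes that bring lipid to the growing membrane, the genes of both Atg18 proteins rose and those of their partners Atg2 and Atg9 fell. Atg18b, which encodes a protein that binds the lipid PI3P (FBgn0032935, chromosome 2L, 21212322 to 21220572, minus strand), stood at 30.3, 31.8, 30.8, 43.6 and 41.2 TPM in the mex>PGRP-LE libraries, against 24.5, 27.7, 22.2, 17.9 and 18.04 TPM in the mex>+ libraries. The groups did not overlap, and a change of 0.67 ± 0.14 log2 units (SE; adjusted p by limma = 0.00191) was the second largest rise among the members and had the largest SE of them. PGRP-LE replicates 4 and 5 stood highest and control replicates 4 and 5 lowest. Its related gene Atg18a averaged 43.9 ± 2.65 TPM with PGRP-LE and 37.99 ± 2.23 TPM in controls (SD, n = 5; log2 change 0.20, adjusted p = 0.00646), and did not pass after rescaling (0.10, adjusted p = 0.129) or when scaled to the spike-ins. Atg2, which encodes a lipid transfer protein, averaged 13.1 ± 0.823 TPM with PGRP-LE and 15.9 ± 0.921 TPM in controls (SD, n = 5; log2 change -0.26, adjusted p = 0.00157). The groups of Atg2 overlapped in a single PGRP-LE library. Atg9, a lipid scramblase on small vesicles, fell without overlap, with libraries at 19.3 to 22.7 TPM with PGRP-LE and 22.9 to 26.1 TPM in controls (log2 change -0.21, adjusted p = 0.00526).

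In the nucleation complex, the lipid kinase gene Pi3K59F had the largest fall of all members. This gene (FBgn0015277, chromosome 2R, 23560492 to 23564045, plus strand), the fly form of Vps34, stood at 13.00, 12.8, 12.1, 12.3 and 13.5 TPM in the mex>PGRP-LE libraries, against 18.5, 18.3, 17.9, 18.7 and 16.2 TPM in the mex>+ libraries. The highest PGRP-LE library lay below the lowest control library, a change of -0.46 ± 0.051 log2 units (SE; adjusted p by limma = 8.97e-06). Its obligate partners Vps15 and Atg6, the fly Beclin 1, did not pass the threshold. Vps15 averaged 9.82 ± 0.233 TPM with PGRP-LE and 9.75 ± 0.195 TPM in controls (SD, n = 5; log2 change 0.0091, adjusted p = 0.859), and Atg6 averaged 17.7 ± 0.525 TPM with PGRP-LE and 18.7 ± 1.14 TPM in controls (SD, n = 5; log2 change -0.070, adjusted p = 0.234). Rescaling made Atg6 lower (-0.17, adjusted p = 0.00281). The genes of the alternative subunits that direct the complex, Atg14 to autophagosomes and Uvrag to endosomes, rose slightly (log2 change 0.13, adjusted p = 0.0369 for Atg14, and log2 change 0.15, adjusted p = 0.0211 for Uvrag). Both of those calls were lost after rescaling (0.032 and 0.052), and so was that of Atg14 without any 1 library other than PGRP-LE replicate 1 or control replicate 2. The call of Uvrag was also lost without PGRP-LE replicate 2 (adjusted p = 0.0523).

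The conjugation genes held the largest rise. Atg5, to which the ubiquitin-like Atg12 is joined (FBgn0029943, chromosome X, 7314622 to 7323770, minus strand), stood at 21.4, 21.3, 21.8, 23.6 and 23.7 TPM in the mex>PGRP-LE libraries, against 13.2, 12.8, 14.1, 13.7 and 12.6 TPM in the mex>+ libraries. Every PGRP-LE library lay far above every control library, and the gene had a change of 0.71 ± 0.050 log2 units (SE; adjusted p by limma = 2.30e-07). Atg8a, the ubiquitin-like protein that coats the autophagosome (FBgn0052672, chromosome X, 10764878 to 10768338, minus strand), stood at 714, 714, 720.0, 785 and 773 TPM in the mex>PGRP-LE libraries, against 548, 549, 588, 571 and 521 TPM in the mex>+ libraries. Its groups did not overlap either, a change of 0.42 ± 0.048 log2 units (SE; adjusted p by limma = 1.30e-05). Atg3, the enzyme that attaches Atg8 to lipid, was measured at 104, 97.4, 104, 118 and 107 TPM in the mex>PGRP-LE libraries, against 83.2, 78.6, 84.7, 84.9 and 84.9 TPM in the mex>+ libraries, which also left a gap between the groups, a change of 0.34 ± 0.053 log2 units (SE; adjusted p by limma = 1.34e-04). Atg16, the partner of Atg5 and Atg12, averaged 16.9 ± 0.671 TPM with PGRP-LE and 14.5 ± 0.385 TPM in controls (SD, n = 5; log2 change 0.20, adjusted p = 0.00135). Its groups did not overlap, though the call was lost when scaled to the spike-ins.

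Of 9 tested conjugation genes 6 rose and 1 fell, beside the same 40.1% and 22.8% of all tested genes. After rescaling 4 rose and 1 fell, beside 31.6% and 31.1% of all genes. The 6 that rose were Atg3, Atg4b, Atg5, Atg8a, Atg12 and Atg16. For Atg12 and Atg4b the groups overlapped (log2 change 0.26, adjusted p = 0.0264 for Atg12, and log2 change 0.23, adjusted p = 0.00566 for Atg4b), and both calls were lost after rescaling (0.16 and 0.13). The call of Atg12 was also lost without PGRP-LE replicate 4 or 5, or without control replicate 2, 3 or 5 (adjusted p up to 0.0667). The 2 genes of the Atg4 proteases, which trim Atg8 and release it again, moved in opposite directions. Atg4a fell, 20.53 ± 0.886 TPM with PGRP-LE and 23.7 ± 1.13 TPM in controls (SD, n = 5; log2 change -0.20, adjusted p = 0.00350), and its groups did not overlap, though this call too was lost when scaled to the spike-ins. Atg7, which activates both Atg8 and Atg12, did not pass the threshold (log2 change -0.024, adjusted p = 0.793). Atg10, the enzyme that hands Atg12 to Atg5, did not either (log2 change 0.17, adjusted p = 0.130).

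**Figure D2:**
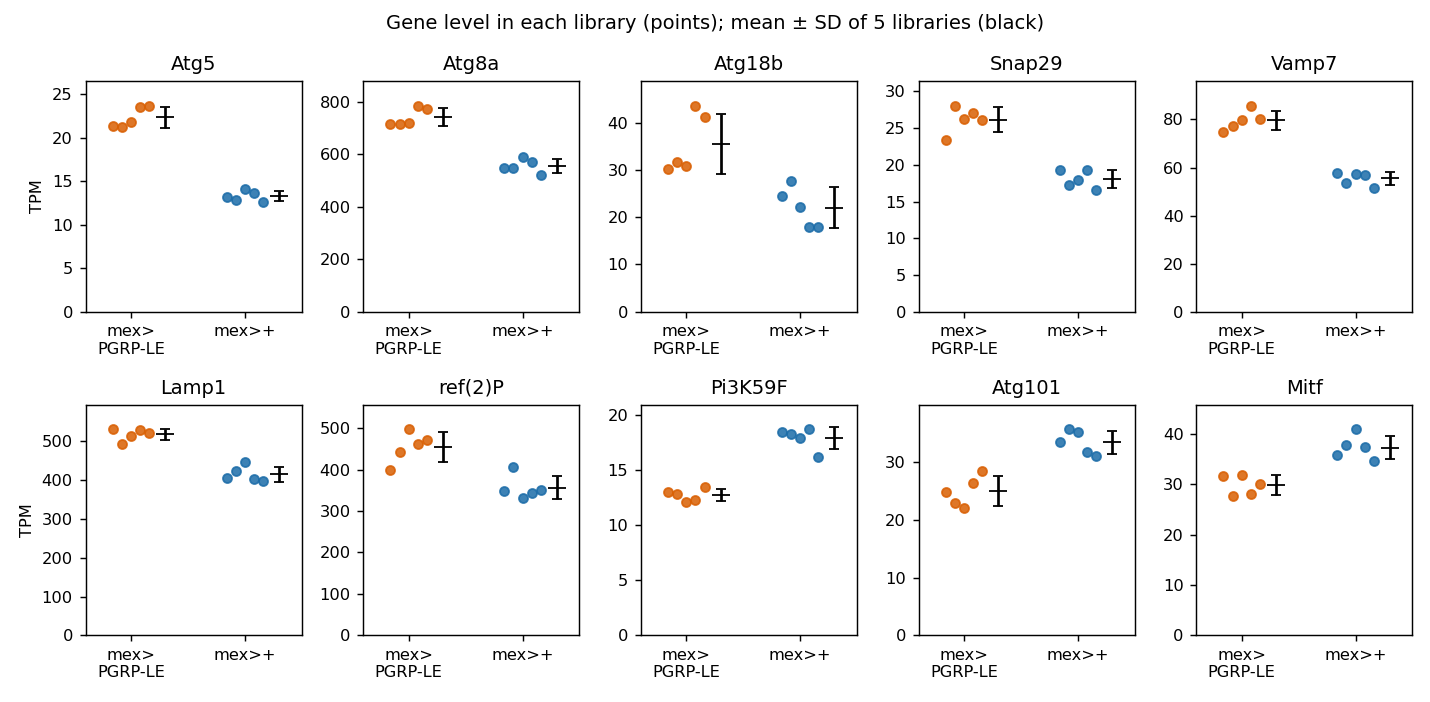
Level in TPM of 10 autophagy genes in each library, mex>PGRP-LE left of mex>+, with points for libraries (replicates 1 to 5 from left to right) and black marks for mean ± SD (n = 5). Levels start at 0 on each axis. The groups are apart for every gene shown except ref(2)P, where control replicate 2, at 405 TPM, lies above PGRP-LE replicate 1, at 399 TPM.

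Among the fusion genes 3 of 5 rose and 0 fell, or 3 and 1 after rescaling. The 3 are 60% of the step. Of all tested genes 40.1% rose and 22.8% fell, or 31.6% and 31.1% after rescaling. Syx17, Snap29 and Vamp7 encode the 3 SNARE proteins that together join the autophagosome to the lysosome. Snap29 (FBgn0034913, chromosome 2R, 23843483 to 23844763, minus strand) stood at 23.4, 28.04, 26.2, 27.02 and 26.2 TPM in the mex>PGRP-LE libraries, against 19.3, 17.2, 17.98, 19.3 and 16.6 TPM in the mex>+ libraries. Vamp7 (FBgn0266186, chromosome 2R, 9841080 to 9842502, minus strand) stood at 74.9, 77.4, 79.7, 85.7 and 80.3 TPM in the mex>PGRP-LE libraries, against 57.6, 53.6, 57.4, 56.99 and 51.7 TPM in the mex>+ libraries. Neither gene's groups overlapped, with a change of 0.51 ± 0.060 log2 units (SE; adjusted p by limma = 1.38e-05) for Snap29 and a change of 0.51 ± 0.049 log2 units (SE; adjusted p by limma = 2.71e-06) for Vamp7. Syx17, the SNARE on the autophagosome itself, averaged 11.6 ± 0.671 TPM with PGRP-LE and 12.3 ± 0.590 TPM in controls (SD, n = 5) and did not pass (log2 change -0.078, adjusted p = 0.209). After rescaling it was lower (-0.17, adjusted p = 0.0107).

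Rab7, the GTPase of late endosomes, ranged over 174 to 200.1 TPM with PGRP-LE and 175 to 228 TPM in controls, with overlapping groups (log2 change -0.061, adjusted p = 0.472). Lamp1, an abundant protein of the lysosomal membrane (FBgn0032949, chromosome 2L, 21573389 to 21577103, plus strand), stood at 530.3, 494, 515, 528 and 522 TPM in the mex>PGRP-LE libraries, against 406, 424, 446, 403 and 398 TPM in the mex>+ libraries. All PGRP-LE libraries were higher, a change of 0.32 ± 0.044 log2 units (SE; adjusted p by limma = 5.83e-05).

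The cargo adaptor gene ref(2)P, the fly form of p62 (FBgn0003231, chromosome 2L, 19542468 to 19545548, plus strand), stood at 399, 442, 497, 461 and 471 TPM in the mex>PGRP-LE libraries, against 349, 405, 331, 344 and 352 TPM in the mex>+ libraries. It rose, with a change of 0.35 ± 0.068 log2 units (SE; adjusted p by limma = 8.49e-04), and 4 of 5 PGRP-LE libraries lay above every control library. Mitf, the fly member of the TFEB family of factors that switch on lysosomal and autophagy genes (FBgn0263112, chromosome 4, 1198852 to 1224467, plus strand), moved the other way. It stood at 31.6, 27.7, 31.9, 28.2 and 30.04 TPM in the mex>PGRP-LE libraries, against 35.9, 37.8, 40.9, 37.3 and 34.7 TPM in the mex>+ libraries. The groups did not overlap, a change of -0.31 ± 0.058 log2 units (SE; adjusted p by limma = 5.30e-04).

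Calls in the TPM as deposited and after median-of-ratios rescaling differed for 8 of the 29 members. Of the 21 called, 14 kept their call and direction in each alternative tried for them, 9 that rose (Atg1, Atg3, Atg5, Atg8a, Atg18b, Snap29, Vamp7, Lamp1 and ref(2)P) and 5 that fell (Atg2, Atg9, Atg101, Pi3K59F and Mitf). The same 14 were the ones called when libraries were scaled to the spike-ins. The other 7 calls, those of Atg4a, Atg4b, Atg12, Atg14, Atg16, Atg18a and Uvrag, were each lost under that scaling. Their log2 changes, in that order, were then -0.22, 0.21, 0.24, 0.11, 0.19, 0.18 and 0.13. As deposited they were -0.20, 0.23, 0.26, 0.13, 0.20, 0.20 and 0.15, so the sizes moved little. The spike-in scaling factors ran from 0.872 to 1.17 with PGRP-LE and from 0.938 to 1.0186 in controls. The part of this spread in the lost calls was not tested.

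**Figure D3:**
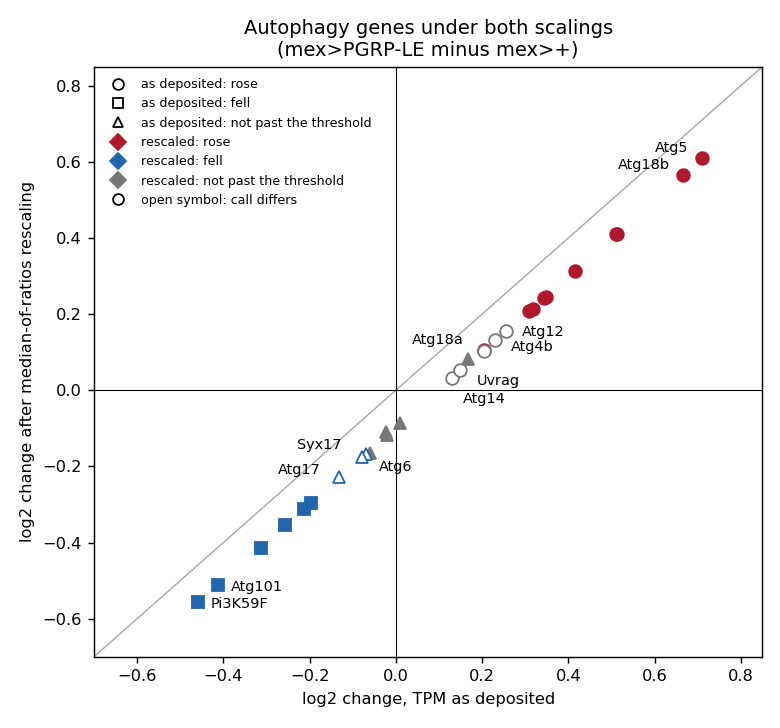
Log2 change of the 29 tested members (mex>PGRP-LE minus mex>+) in the TPM as deposited (horizontal) and after median-of-ratios rescaling (vertical). The grey diagonal marks equal values, shape gives the call as deposited, colour the call after rescaling, and open symbols the 8 members whose call differs. All points lie below the diagonal, and no member is called in opposite directions.

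In the authors' deposited table of log2 fold changes, in which PGRP-LE had a positive value of 6.84, 10 of the 30 members were higher and 6 lower at a p-value under 0.05. By that rule 32.8% of all genes were higher and 22.5% lower in the authors' deposited table. The authors' deposited table gave its extremes to Atg5 (0.73) and Pi3K59F (-0.51) as well. Atg12, Atg14, Atg16, Atg18a and Uvrag, which rose in the fit above, had authors' p-values from 0.0553 to 0.194 in the authors' deposited table.

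The table lists 61 transcripts of the 30 genes, of which 53 reached the level for testing. Of these 19 rose and 11 fell, beside 28.0% and 18.2% of the 15162 transcripts tested. How a gene's reads are split over its transcripts is an estimate of the quantification program, whose uncertainty is not in the files. Transcripts Atg9-RA and Atg9-RB were given equal values in each library, as were Syx17-RA and Syx17-RB, and each pair has the same annotated exons, so each pair is 1 measurement on 2 rows. With each pair counted once, 51 transcripts were tested, of which 19 rose and 10 fell. The share of each transcript in its gene was tested for 33 transcripts of 14 genes, as the log2 ratio to the gene's other transcripts with 0.5 TPM added to each. Without the 4 rows of those pairs, whose shares cannot vary, 29 shares of 12 genes were tested. Among the 33, 2 shares rose and 3 fell, beside 7.25% and 7.40% of the 10844 shares tested.

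Vamp7 showed the sharpest contrast between transcripts. Transcript Vamp7-RA stood at 73.5, 76.4, 78.98, 84.7 and 79.9 TPM in the mex>PGRP-LE libraries, against 53.1, 49.5, 51.8, 52.7 and 47.00 TPM in the mex>+ libraries, and rose with a change of 0.62 ± 0.052 log2 units (SE; adjusted p by limma = 4.21e-06). Transcript Vamp7-RC stood at 1.41, 1.03, 0.728, 1.05 and 0.377 TPM in the mex>PGRP-LE libraries, against 4.54, 4.11, 5.64, 4.31 and 4.69 TPM in the mex>+ libraries. It fell, with no overlap and a change of -1.58 ± 0.15 log2 units (SE; adjusted p by limma = 9.59e-06), against the direction of its gene. Vamp7-RC made up 1.16% ± 0.521 of Vamp7 TPM with PGRP-LE and 8.40% ± 1.000 in controls (SD, n = 5). Averaged over both groups the share was below the 5% needed for the test of shares, so it is given as a description. The transcripts have the same coding exons, and RC holds 58 more bases in the 5′ UTR, at 9842168 to 9842225 of chromosome 2R in BDGP6.54.

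Transcripts of Mitf also moved in opposite directions. Transcript Mitf-RB, the main one, stood at 20.04, 10.6, 17.95, 15.8 and 13.1 TPM in the mex>PGRP-LE libraries, against 24.8, 24.7, 29.2, 25.8 and 24.6 TPM in the mex>+ libraries, and fell without overlap, a change of -0.73 ± 0.14 log2 units (SE; adjusted p by limma = 0.00178). Transcript Mitf-RA rose while its gene fell, at 5.74, 10.6, 7.78, 7.42 and 12.6 TPM in the mex>PGRP-LE libraries, against 4.78, 6.47, 5.18, 6.96 and 4.58 TPM in the mex>+ libraries, a change of 0.55 ± 0.18 log2 units (SE; adjusted p by limma = 0.0325). The groups of Mitf-RA overlapped in the lowest PGRP-LE library. Within the gene, Mitf-RB made up 51.6% ± 10.3 with PGRP-LE and 69.2% ± 2.33 in controls (SD, n = 5), a change of its ratio to the gene's other transcripts by -1.04 ± 0.26 log2 units (SE; adjusted p by limma = 0.0229). Mitf-RA made up 29.8% ± 9.92 with PGRP-LE and 14.99% ± 2.70 in controls (SD, n = 5), a change of its ratio to the gene's other transcripts by 1.18 ± 0.30 log2 units (SE; adjusted p by limma = 0.0286). These transcripts have the same coding exons, and RA runs 1017 bases further at the 3′ end, from 1223451 to 1224467 of chromosome 4. Transcript Mitf-RD has that longer 3′ UTR too, and RA and RD together, summed after the values were seen, held 30.9, 51.2, 34.6, 39.1 and 49.1% of Mitf TPM in the PGRP-LE libraries, against 24.3, 27.1, 24.6, 25.00 and 23.7% in the control libraries. The groups of this sum did not overlap, and the PGRP-LE libraries spread more widely than the controls. Mitf-RD alone averaged 3.32 ± 0.689 TPM with PGRP-LE and 3.72 ± 0.896 TPM in controls (SD, n = 5) and did not pass (limma adjusted p = 0.567). Its share, 11.2% with PGRP-LE and 9.96% in controls, did not pass either (limma adjusted p = 0.5945). The call of the Mitf-RA share was lost without PGRP-LE replicate 2 or 5, or without control replicate 1, 3 or 5 (adjusted p up to 0.0643). That of the Mitf-RB share was lost without PGRP-LE replicate 5, or without control replicate 3 or 5 (adjusted p up to 0.0528).

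Rab7 as a gene did not pass, but its transcript Rab7-RB stood at 21.1, 20.1, 21.8, 26.8 and 23.5 TPM in the mex>PGRP-LE libraries, against 28.2, 34.3, 32.4, 29.8 and 31.1 TPM in the mex>+ libraries. It fell without overlap, a change of -0.45 ± 0.082 log2 units (SE; adjusted p by limma = 0.00115), while the main transcript Rab7-RA averaged 154 ± 6.79 TPM with PGRP-LE and 153 ± 15.97 TPM in controls (SD, n = 5; adjusted p = 0.881). The share of Rab7-RB was 12.1% ± 0.929 with PGRP-LE and 15.97% ± 1.24 in controls (SD, n = 5), a change of its ratio to the gene's other transcripts by -0.46 ± 0.11 log2 units (SE; adjusted p by limma = 0.0186). That call was lost without replicate 2 of both groups (adjusted p = 0.0669). Rab7-RA and Rab7-RB share their coding exons and differ in their 5′ exon and in 200 bases of 3′ UTR. The share of Atg16-RF fell and that of Atg18a-RE rose (limma adjusted p = 0.0458 for Atg16-RF and 0.0415 for Atg18a-RE). The call of Atg16-RF was lost without any 1 library other than control replicate 1, and that of Atg18a-RE without any other than PGRP-LE replicate 5 or control replicate 1.

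**Figure D4:**
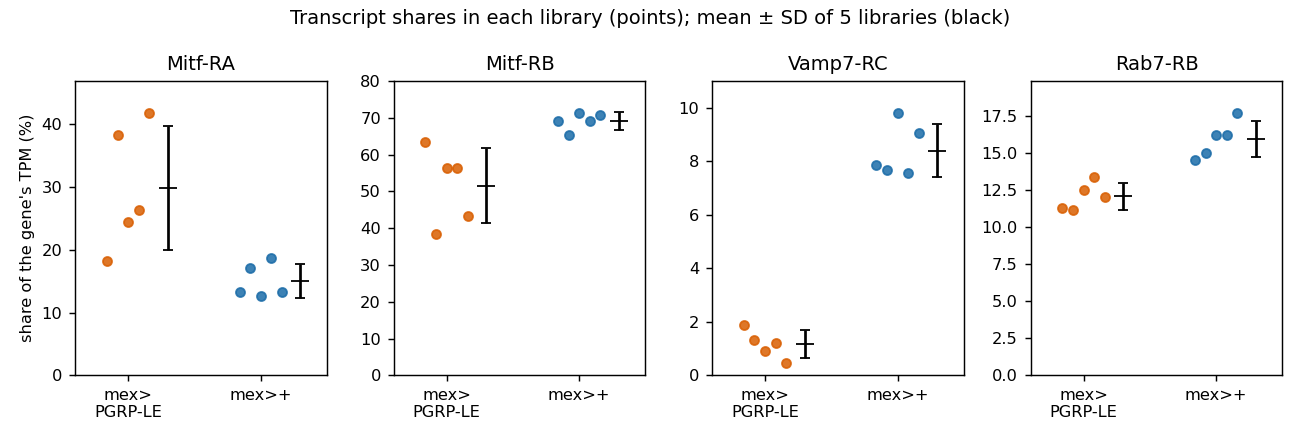
Share of the gene's TPM in percent for Mitf-RA, Mitf-RB, Vamp7-RC and Rab7-RB in each library, mex>PGRP-LE left of mex>+, with points for libraries (replicates 1 to 5 from left to right) and black marks for mean ± SD (n = 5). Mitf-RB, Vamp7-RC and Rab7-RB take smaller shares in every PGRP-LE library than in any control library, and Mitf-RA overlaps between PGRP-LE replicate 1 and control replicate 4.

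For Atg8a a single transcript carried the gene. Of Atg8a TPM, Atg8a-RA held 97.7% ± 0.268 with PGRP-LE and 96.4% ± 0.995 in controls (SD, n = 5), and it rose, whereas Atg8a-RB and Atg8a-RC, which begin at other 5′ exons, did not pass (adjusted p = 0.522 for RB and 0.266 for RC). Of the ref(2)P transcripts, ref(2)P-RB averaged 287 ± 31.7 TPM with PGRP-LE and 211 ± 20.6 TPM in controls (SD, n = 5; adjusted p = 0.00191) without overlap. Its partner ref(2)P-RA, shorter by 90 bases at the 3′ end, averaged 167 ± 35.7 TPM with PGRP-LE and 145 ± 22.1 TPM in controls and did not pass (adjusted p = 0.309). The difference between these transcripts, tested as a share, did not pass either (adjusted p = 0.468). Both Atg18b transcripts rose by about the same amount (log2 change 0.65 for RA and 0.65 for RB).

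Some members share exon bases with a neighbour on the other strand. The overlap covered 51.4% of the exon bases of Atg4a (with CG4629) and 46.6% of those of Atg10 (with Dgk). CG4629 averaged 3.02 TPM with PGRP-LE and 6.71 TPM in controls, lower like Atg4a. A stranded kit was used, but the sources used here do not give the strand setting of kallisto, so the values of these members are uncertain to that extent. Atg12 shares 13.6% of its exon bases with the abundant ND-SGDH, Uvrag 23.8% with an annotated antisense RNA, and ref(2)P 7.22% with CG10337. CG10337 averaged 29.1 TPM with PGRP-LE and 13.5 TPM in controls, higher like ref(2)P. Vamp7 shares 7.32% with Marc, which averaged 22.2 TPM with PGRP-LE and 30.5 TPM in controls, lower where Vamp7 was higher. On the same strand, Atg10 shares 3.50% with CG12822, which averaged 22.5 TPM with PGRP-LE and 23.7 TPM in controls. Pi3K59F shares 2.31% on the same strand with CG30184, which averaged 0.523 TPM with PGRP-LE and 0.352 TPM in controls.

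A further 48 genes of the pathway were described from 4 lists, and all were tested. Of these 20 rose and 11 fell. That is 41.7% and 22.9%, beside 40.1% and 22.8% of all tested genes, so in the TPM as deposited these genes together stood at the background. After median-of-ratios rescaling 14 of the 48 rose and 20 fell, beside 31.6% and 31.1% of all genes. Their median log2 change was then -0.074, beside -0.0018 for all genes, so more of them were lower than at the background. Each of the 4 lists stands beside those same shares of all genes. The 2 genes named per list are those with the smallest p, and any other gene was named after its values were seen.

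Among 11 genes of the HOPS complex, which tethers autophagosomes to lysosomes, and its partners, 4 rose and 2 fell, with a median log2 change of 0.016. The shares that rose and fell were 36.4% and 18.2%, and 3 rose and 4 fell after rescaling. Epg5, a tether known from worms and mammals, averaged 9.91 ± 0.337 TPM with PGRP-LE and 11.98 ± 0.422 TPM in controls, a change of -0.25 ± 0.044 log2 units (SE; adjusted p by limma = 3.98e-04). The HOPS subunit gene Vps16A averaged 15.9 ± 0.835 TPM with PGRP-LE and 13.1 ± 0.547 TPM in controls, a change of 0.26 ± 0.049 log2 units (SE; adjusted p by limma = 6.87e-04). Of 15 genes of nutrient sensing upstream of Atg1, 4 rose and 5 fell, with a median of -0.086. The shares that rose and fell were 26.7% and 33.3%, and 2 rose and 8 fell after rescaling. alc, the beta subunit of the energy sensor AMPK, averaged 151 ± 11.4 TPM with PGRP-LE and 236 ± 6.95 TPM in controls, a change of -0.64 ± 0.055 log2 units (SE; adjusted p by limma = 1.11e-06). Rheb, which activates the growth kinase TORC1, fell too, 85.3 ± 2.83 TPM with PGRP-LE and 106 ± 3.18 TPM in controls, a change of -0.31 ± 0.041 log2 units (SE; adjusted p by limma = 3.28e-05).

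Among 11 genes of selective autophagy and regulators of autophagy, 7 rose and 1 fell, with a median of 0.21. The shares that rose and fell were 63.6% and 9.09%, and 5 rose and 3 fell after rescaling. TER94, the fly form of the segregase VCP, averaged 225 ± 6.16 TPM with PGRP-LE and 124 ± 5.12 TPM in controls, a change of 0.86 ± 0.043 log2 units (SE; adjusted p by limma = 1.71e-08). Pink1, a kinase that marks damaged mitochondria, fell to 54.8 ± 2.01 TPM with PGRP-LE, against 71.6 ± 2.55 TPM in controls, a change of -0.38 ± 0.043 log2 units (SE; adjusted p by limma = 9.85e-06). Tango5, stas and tank, which rose by 0.26, 0.34 and 0.21, are related to mammalian proteins of the endoplasmic reticulum that act in autophagosome formation.

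Of 11 lysosomal proteases and membrane proteins 5 rose and 3 fell, with a median of -0.050. The shares that rose and fell were 45.5% and 27.3%, and 4 rose and 5 fell after rescaling. Of the 5 proteases, CtsB, cathD and CtsL1 rose, CtsF fell and CtsK1 did not pass. CtsB averaged 1052 ± 25.8 TPM with PGRP-LE and 612 ± 14.3 TPM in controls, a change of 0.78 ± 0.038 log2 units (SE; adjusted p by limma = 1.47e-08), and cathD averaged 486 ± 18.3 TPM with PGRP-LE and 311 ± 16.6 TPM in controls, a change of 0.64 ± 0.048 log2 units (SE; adjusted p by limma = 3.73e-07). CtsF averaged 179 ± 21.6 TPM with PGRP-LE and 219 ± 18.3 TPM in controls (SD, n = 5), a change of -0.30 ± 0.087 log2 units (SE; adjusted p by limma = 0.0106). Trpml, the calcium channel of the lysosomal membrane, fell, 31.2 ± 1.72 TPM with PGRP-LE and 49.7 ± 4.09 TPM in controls, a change of -0.65 ± 0.062 log2 units (SE; adjusted p by limma = 2.41e-06). Cln7, a lysosomal membrane transporter, rose by 0.79 and spin, another, fell by 0.21 on the log2 scale.

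**Figure D5:**
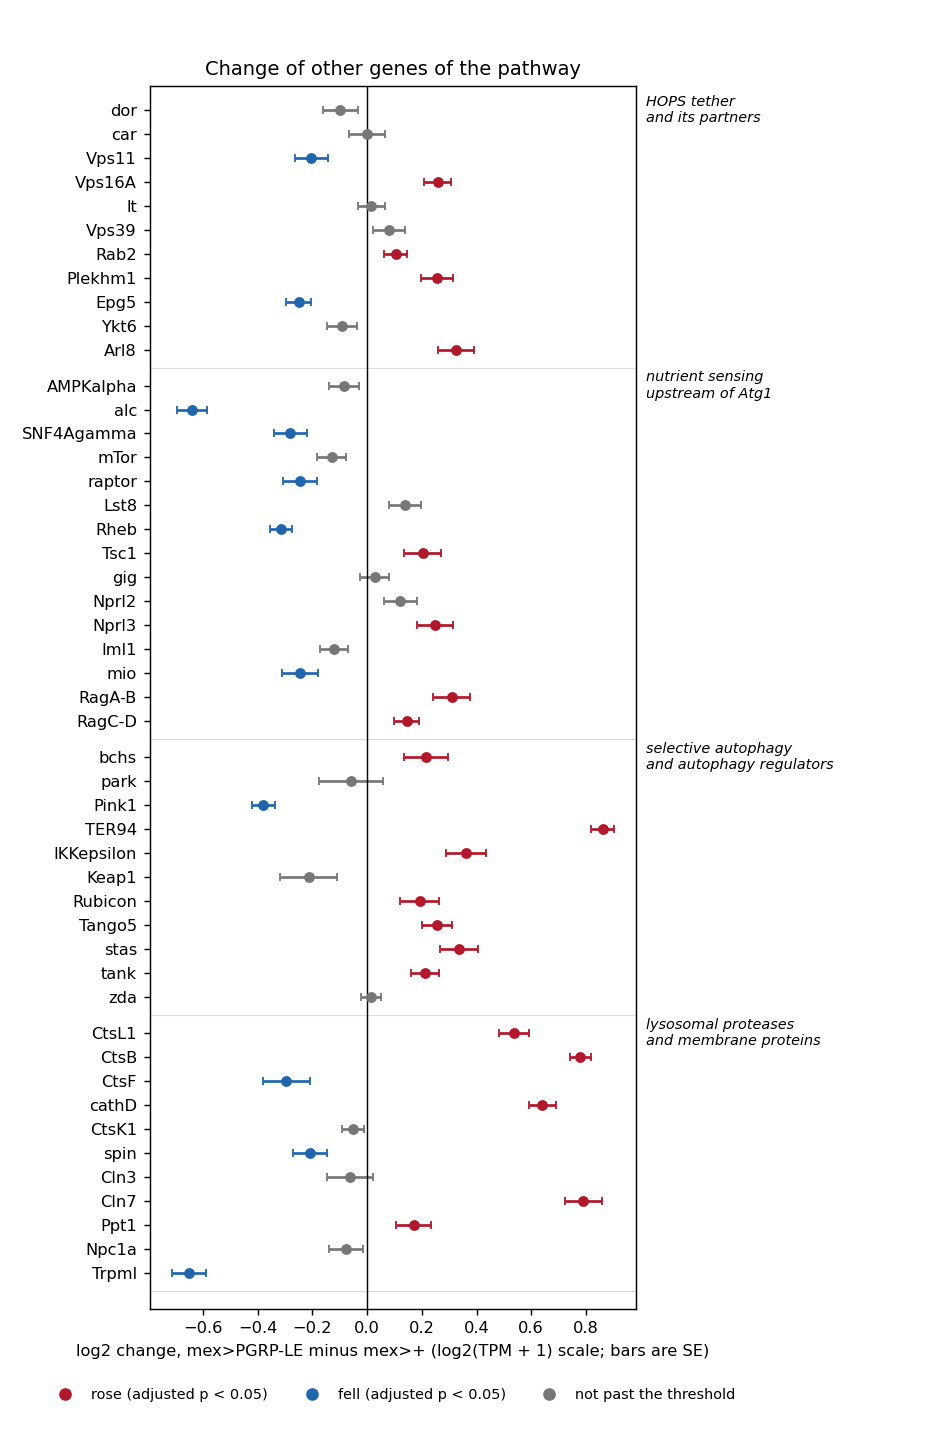
Log2 change of 48 other genes of the pathway (mex>PGRP-LE minus mex>+, on the log2(TPM + 1) scale), grouped by list down the page, with bars for the SE from limma and 5 libraries per group. Each list holds genes that rose (red) and genes that fell (blue), and the selective autophagy list holds 7 red and 1 blue.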

How the data were processed

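RNA from adult male midguts was measured in 10 polyA libraries made with a stranded kit, per the labels' protocols. Per the submitters' processing notes, FastQC, Trim Galore, kallisto and edgeR were used with build BDGP6, without versions or settings. The authors deposited TPM per transcript (31181 rows, 92 of them ERCC spike-ins) and a table of their own log2 fold changes and p-values. The title of that table names RUVSeq, and the sources used here do not say whether its p-values are adjusted.

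Transcript IDs were looked up in Ensembl release 115 (BDGP6.54), the source of all coordinates, where 31048 of 31089 were found, and TPM were summed per gene. Symbols of Tor, ik2, trpml and Dl were updated to mTor, IKKepsilon, Trpml and Delta. Tests used limma 3.58.1 in R 4.3.3, with linear models and moderated variances (trend, robust), on log2(TPM + 1) of genes or transcripts that reached 1 TPM in 5 or more libraries. Transcript shares between 5% and 95% were tested as log2 ratios with 0.5 TPM added to each part. TPM keep no depth, so no counting interval is given. P-values weigh the difference between group means against the spread between libraries, with variances moderated as above. The series calls these libraries biological replicates. The fits were tested on simulated data drawn independently for each library. That check does not cover the scaling of the TPM or factors shared between libraries.

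All 30 members are named, with the 2 genes of smallest p in each other list. The members and lists were chosen with earlier results of these data known. Alternatives covered pseudocounts (0.1 and 5), filters, scaling (median of ratios, quantile, spike-ins), limma without trend and robust, a replicate block and leaving out libraries. A share fit without rows of equal values was added after seeing the data. Sequences and promoter motifs are not analysed here.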

Additional observations from a re-analysis of the deposited data

Results flagged for a closer look

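In 68 groups of 5 libraries (each tested member, and each transcript with a called share, in each genotype), a single library stood apart from the other 4 by Dixon's test in 5 groups, where chance gives about 1 in 20 groups. For Atg2, PGRP-LE replicate 5 stood at 14.6 TPM and the others at 12.5 to 13.0 TPM. For Atg3, control replicate 2 stood at 78.6 TPM and the others at 83.2 to 84.9 TPM. For ref(2)P, control replicate 2 stood at 405 TPM and the others at 331 to 352 TPM. For transcript Atg18a-RE, control replicate 1 stood at 2.17 TPM and the others at 1.63 to 1.76 TPM. For transcript Mitf-RB, control replicate 3 stood at 29.2 TPM and the others at 24.6 to 25.8 TPM. Without the library in question, the gene calls of Atg2, Atg3 and ref(2)P were kept, and so was that of the Atg18a-RE share (adjusted p = 0.0489). The call of the Mitf-RB share was lost (adjusted p = 0.0528).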

How the results depend on the processing

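The 15 members that rose became 9 when libraries were scaled to the spike-ins, with a range of 12 to 15 when libraries were left out, and 6 fell in each of those last fits. Of the other pathway genes, 10 rose with spike-in scaling, and 20 fell after median-of-ratios rescaling and 19 after quantile normalization; with libraries left out, 15 to 19 rose and 10 to 13 fell. Among all 8722 tested genes 3499 rose and 1991 fell in the main fit, and 3131 to 3556 rose and 1789 to 2044 fell when libraries were left out. With spike-in scaling 2582 of all genes rose and 1649 fell. After median-of-ratios rescaling 2754 rose and 2716 fell, and after quantile normalization 2986 rose and 2566 fell. Of the member transcripts, 12 rose after median-of-ratios rescaling, and 14 to 19 rose and 8 to 11 fell with libraries left out. No count of all transcripts is given for those fits. The called shares that rose numbered 1 when shares of 10% to 90% were tested, and 0 to 2 with libraries left out, where those that fell numbered 1 to 3. Under a replicate block 7 member transcripts fell, 0 shares rose and 1 fell, and the gene calls of Atg14 and Uvrag were lost. Same-numbered libraries correlated in their deviations from group means by -0.17, 0.57, -0.23, 0.065 and -0.056 for replicates 1 to 5. Only for replicate 2 was this above the highest correlation with a control of another number (0.088). The other numbers showed no sign of pairing, and whether the replicate 2 libraries share a factor was not tested. Only 4 members changed sign, none of them called in any of those fits: Vps15 was -0.085, -0.060 and -0.0091 after median-of-ratios, quantile and spike-in scaling. With libraries left out, Atg13 ran from -0.065 to 0.058 (0.028 without replicate 2 of both groups), Atg7 from -0.058 to 0.0049 and Rab7 from -0.099 to 0.0089. The cause of these shifts was not tested. Of 578 pairs of member and alternative, 525 kept direction and side of the threshold, 34 lost the call and 6 gained it. Depth is unknown from TPM, and Atg8b was too low to compare.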
